A study of Mus musculus with 6 samples.

Results

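The 10 genes described here encode enzymes that write or erase methyl marks on DNA, enzymes that supply a cofactor of the erasers, and the chromatin scaffolds Asxl1 and Asxl2. Several of them, DNMT3A, TET2, IDH1, IDH2 and ASXL1 in human nomenclature, are known for recurrent mutations in clonal hematopoiesis and myeloid leukemia; read counts per gene carry no information on mutations or isoforms. They were taken by symbol: Dnmt1, Dnmt3a, Dnmt3b, Tet1, Tet2, Tet3, Idh1, Idh2, Asxl1 and Asxl2. All 10 were among the 24421 genes of the deposited read count table, and all 10 were among the 13411 that passed the low-count filter. RNA had been sequenced from Lin-CD117+ bone marrow cells, a sorted fraction without lineage antigens that carries the receptor KIT and holds stem and progenitor cells, of female CByB6F1 mice (a hybrid laboratory strain) aged 2 to 5 months. The untreated group had 3 libraries (pools 1 to 3), and the RUX group had 3 (pools 4 to 6) whose mice received ruxolitinib, an inhibitor of the kinases JAK1 and JAK2. Each library combined the cells of 2 to 3 mice of the same group, so no value belongs to a single animal. The sources used here do not give dose, duration or genotype beyond the strain. The question was how expression in these cells differs with the drug in normal mice.

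DNA methyltransferases place a methyl group on cytosines that stand before a guanine (CpG sites). Dnmt1 copies an existing pattern onto new strands after replication, whereas Dnmt3a and Dnmt3b place marks at new sites. The TET proteins are dioxygenases that oxidize the methyl group, a step toward its removal, and need 2-oxoglutarate, which the isocitrate dehydrogenases Idh1 (cytosol) and Idh2 (mitochondria) produce; Asxl1 and Asxl2 neither write nor erase DNA methylation but are scaffold subunits of the BAP1 complex, which removes ubiquitin from histone H2A. In blood, loss of Dnmt3a or Tet2 function is known to favor self-renewal of stem cells.

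Counted read pairs were 27354768 to 48747137 per library and every untreated library was shallower than every RUX library. The sorting antigen gene Kit measured 196 to 471 CPM, lowest in untreated pool 3. CPM is the usual unit of read pairs scaled to library size, here with TMM (trimmed mean of M values) factors. Of the lineage antigen genes, the T cell genes Cd3e, Cd8a and Cd4 reached at most 0.538, 0.247 and 1.68 CPM. Itgam, another lineage antigen gene, was higher, at 10.9 to 17.1 CPM. Of the pools, untreated pool 3 had the lowest level of stem cell markers (158 CPM summed over 10 genes, against 247 to 275 CPM in the other 5) and the highest of eosinophil markers (236 CPM over 6 genes), followed for the latter by RUX pool 4 (227 CPM, against 39.9 to 90.7 CPM in the other 4). Neutrophil markers varied most, with 8 genes summing to 165 to 2440 CPM in untreated and 358 to 1530 CPM in RUX pools, and 3 of 7 stromal and endothelial genes were detected in every pool, with Lepr, Pdgfra, Cdh5 and Col1a1 at 0 in at least 1. In bulk RNA, fewer cells of a type and less RNA per cell cannot be told apart.

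The promoters of the 10 genes differed widely in CpG content. RefSeq (build GRCm38.p6, the mm10 assembly) gave 15 windows for the 10 genes, each from 250 bases before to 50 bases after an annotated start. The letters CG, which read the same on both strands, occurred in 94.6% of all 32851 windows of 300 bases, and the densest window per gene held a median of 21 CpG sites over the 10179 tested genes with a window. Of the 10 genes, 7 lay above that median. Tet2 stood out with 57 sites, more than 99.7% of those genes, and Dnmt3a followed with 47. The Tet2 window repeats itself: 67.8% of its bases equalled the base 42 positions earlier, a higher best self-match than in 99.9% of windows at shifts of 20 to 100 bases. Dnmt1 had 3 windows, from a CpG-poor one at the outermost start (2 sites) to a CpG-rich one at the inner start (33 sites); counts per gene do not tell which start was used. Asxl1 had the fewest in its densest window (13 sites). Its window (chr2:153345580-153345879) and that of Tet1 (chr10:62887275-62887574) do not cover the outermost starts in the annotation used for the counts. These lie at 153346139 for Asxl1 and 62880014 for Tet1. The windows are shown for Tet2, for both extremes of Dnmt1 and for Asxl2, the 1 gene whose groups separated, 5′ to 3′ on the gene's strand with CpG sites in capitals. They lie at chr3:133544341-133544640 (minus strand), chr9:20959839-20960138 (minus), chr9:20952574-20952873 (minus) and chr12:3426607-3426906 (plus).
Tet2: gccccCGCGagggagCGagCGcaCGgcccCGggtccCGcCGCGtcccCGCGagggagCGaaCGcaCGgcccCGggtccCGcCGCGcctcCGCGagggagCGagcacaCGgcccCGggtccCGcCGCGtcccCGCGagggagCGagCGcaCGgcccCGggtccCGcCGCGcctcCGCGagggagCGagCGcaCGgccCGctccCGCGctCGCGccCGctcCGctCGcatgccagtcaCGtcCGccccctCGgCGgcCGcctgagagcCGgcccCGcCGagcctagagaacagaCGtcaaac
Dnmt1, outer start: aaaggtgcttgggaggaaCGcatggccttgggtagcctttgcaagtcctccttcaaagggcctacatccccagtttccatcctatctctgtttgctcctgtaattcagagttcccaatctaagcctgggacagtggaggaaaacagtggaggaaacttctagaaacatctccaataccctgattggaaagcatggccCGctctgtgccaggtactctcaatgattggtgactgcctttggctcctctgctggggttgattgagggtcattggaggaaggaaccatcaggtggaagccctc
Dnmt1, inner start: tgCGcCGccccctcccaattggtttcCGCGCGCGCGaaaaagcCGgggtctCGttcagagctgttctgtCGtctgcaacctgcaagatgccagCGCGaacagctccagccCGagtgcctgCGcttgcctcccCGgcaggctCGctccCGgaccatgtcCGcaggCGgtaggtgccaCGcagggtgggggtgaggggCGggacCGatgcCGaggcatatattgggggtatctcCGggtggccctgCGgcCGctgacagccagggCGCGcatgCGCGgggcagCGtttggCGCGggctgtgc
Asxl2: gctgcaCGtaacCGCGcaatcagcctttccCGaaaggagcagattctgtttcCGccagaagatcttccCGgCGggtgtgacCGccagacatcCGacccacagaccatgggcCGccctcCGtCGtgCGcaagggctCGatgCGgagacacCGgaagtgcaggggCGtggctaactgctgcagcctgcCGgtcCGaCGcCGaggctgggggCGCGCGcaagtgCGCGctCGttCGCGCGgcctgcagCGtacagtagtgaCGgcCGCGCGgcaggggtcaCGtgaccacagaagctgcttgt

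The level of the 10 genes fell into the same broad order in both groups, from Idh2 at the top to the TET genes at the bottom. Per kilobase of summed exon length, the scale on which genes can be compared, Idh2 averaged 191 ± 26.1 CPM per kb over the 6 pools (SD, n = 6, as for the levels that follow). Dnmt1 averaged 40.5 ± 6.52 and Idh1 33.6 ± 6.63 CPM per kb. Next came Dnmt3b at 12.6 ± 1.51, Asxl1 at 10.3 ± 1.35, Dnmt3a at 5.42 ± 0.489 and Asxl2 at 4.91 ± 0.593 CPM per kb. Tet3 averaged 3.51 ± 0.807, Tet2 1.44 ± 0.146 and Tet1 1.21 ± 0.218 CPM per kb, so Idh2 was 158 times as high as Tet1. The steps from Idh2 to Dnmt1, Idh1 to Dnmt3b, Asxl1 to Dnmt3a and Tet3 to Tet2 were clear of the spread, the lowest pool of the upper gene lying above the highest pool of the lower one. The other 5 neighbors in the order overlapped across pools; within single pools Dnmt3b exceeded Asxl1, Asxl2 exceeded Tet3 and Tet2 exceeded Tet1 in 6 of 6, while Dnmt1 exceeded Idh1 and Dnmt3a exceeded Asxl2 in 5 of 6. The exon length counts every annotated exon of a gene and can exceed the length of the transcripts made.

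**Figure D1:**
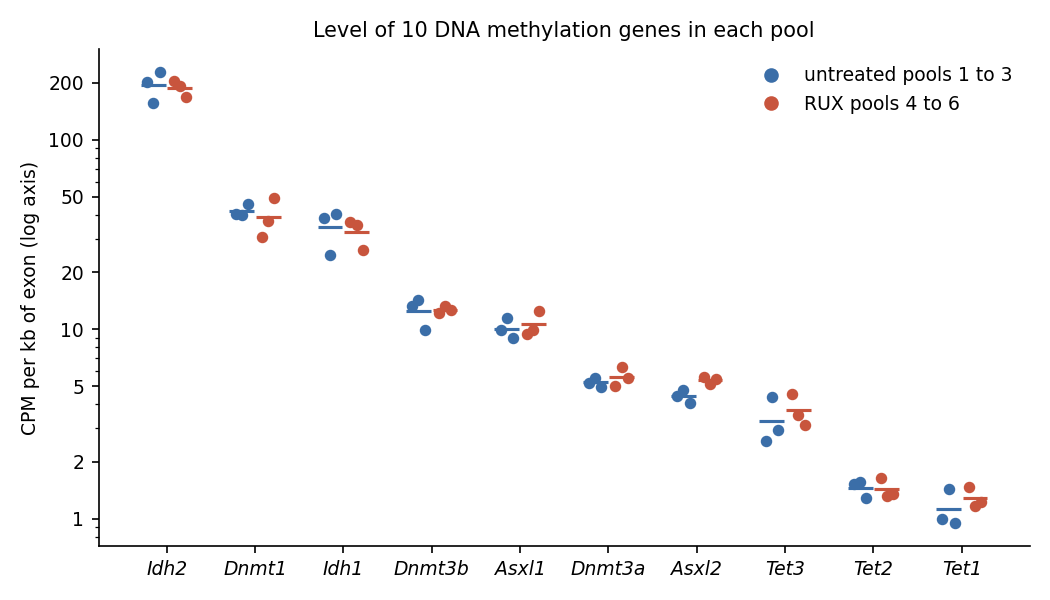
CPM per kilobase of summed exon length (log axis) of the 10 genes in each of the 3 untreated (blue) and 3 RUX pools (red); points are pools and bars are group means. Idh2 sits at 156 to 228 and Tet1 at 0.946 to 1.47 CPM per kb, and the colors overlap for all genes except Asxl2.

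None of the 10 genes changed with RUX by the test. In edgeR's quasi-likelihood fit of all 13411 genes, 0 of the 10 had a Benjamini-Hochberg adjusted p under 0.05, where the share among all tested genes was 0%; DESeq2 and limma-voom also called 0 of the 10. At an unadjusted p under 0.05 the count was 0 of 10, beside 1.89% of all tested genes. Fold changes ran from 0.923 (Dnmt1) to 1.22 (Asxl2), 6 above and 4 below 1, with a median log2 fold change of 0.05 against 0.00 over all tested genes. All 10 of the 95% intervals lay between 0.707-fold and 1.55-fold, within 2-fold either way, as did 80.9% of all tested genes. The genes were well counted, at 390 to 15830 read pairs per pool. For 1 of the 10 genes the difference between the group means of log2(CPM + 1) exceeded the SD within groups, against 21.4% of all tested genes.

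**Figure D2:**
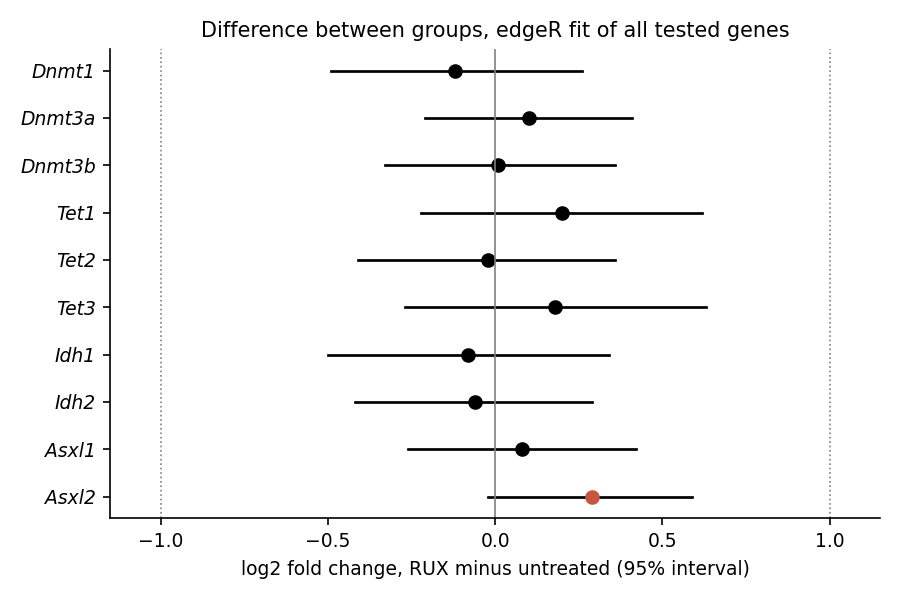
Log2 fold change (RUX minus untreated) of each gene with its 95% interval from the edgeR fit; the dotted lines mark a 2-fold difference. All 10 intervals include 0 and lie inside the dotted lines, and the red point is Asxl2, the only one of the 10 whose RUX pools all lay above the untreated pools.

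Of the methyltransferases, Dnmt1, the maintenance enzyme, varied most between RUX pools. Dnmt1 (mm10, chromosome 9, 20907206 to 20959888, minus strand) measured 256, 251 and 289 CPM in untreated pools 1, 2 and 3 and 192, 234 and 309 CPM in RUX pools 4, 5 and 6. In CPM, RUX pool 4 was the lowest and RUX pool 6 the highest of all 6, so the RUX pools enclosed the untreated ones. This did not hold relative to tested genes of 4 to 8 kb exon length and at least 5 CPM. On that scale Dnmt1 stood at −0.03, −0.11 and 0.35 in untreated and −0.28, −0.13 and 0.21 in RUX pools, with untreated pool 3 the highest. The part of transcript length in these values was not tested. The log2 fold change was −0.12 ± 0.17 (SE; edgeR adjusted p = 1). It was 0.04 without RUX pool 4, −0.32 without RUX pool 6 and 0.10 when untreated pool 3 was left out along with RUX pool 4. The same RUX pools were the extremes of the S-phase and proliferation list, at mean deviations of −0.17 (pool 4) and 0.18 (pool 6) from the mean of the 6 pools on the log2(CPM + 1) scale; all 12 of its genes were detected in every pool, and they summed to 4690 to 4710 CPM in untreated and 4100 to 5280 CPM in RUX pools. The erythroid list had its extremes there too, at −0.28 and 0.44 (8 of 8 genes detected, 5870 to 6870 and 5520 to 8090 CPM). Among the untreated pools the highest deviation fell in pool 3 for Dnmt1, in pool 1 for the S-phase list and in pool 2 for the erythroid list. In untreated pools 1, 2 and 3 Dnmt1 deviated by 0.02, −0.01 and 0.20. The S-phase list deviated by 0.05, −0.01 and −0.01, and the erythroid list by −0.07, 0.16 and −0.20. In RUX pool 5 the values were −0.11 for Dnmt1, −0.03 for the S-phase list and −0.05 for the erythroid list. The part of either list in the Dnmt1 values was not tested.

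Over all 6 pools both de novo enzymes were steadier. Their SDs on the log2(CPM + 1) scale were 0.12 (Dnmt3a) and 0.18 (Dnmt3b), against 0.24 for Dnmt1. Among the untreated pools alone Dnmt3b varied more than Dnmt1, with deviations of −0.33 to 0.20 against −0.01 to 0.20. Dnmt3a (chromosome 12, 3806980 to 3914443, plus strand) measured 51.8, 55.1 and 49.2 CPM in untreated and 49.9, 62.5 and 54.7 CPM in RUX pools. Only RUX pool 5 stood above the untreated range, and the log2 fold change was 0.10 ± 0.14 (SE; edgeR adjusted p = 1). Relative to tested genes of 8 kb exon length and over, its length class, the difference was 0.00. Dnmt3b (chromosome 2, 153649449 to 153687730, plus strand) measured 57.4, 62.0 and 42.8 CPM in untreated and 52.2, 57.2 and 54.4 CPM in RUX pools. Untreated pool 3 was the lowest, all RUX pools lay inside the untreated range, and the log2 fold change was 0.01 ± 0.16 (SE; edgeR adjusted p = 1). In that pool Dnmt3b deviated by −0.33 from its mean over the 6 pools, tested genes of 4 to 8 kb exon length and at least 5 CPM had a median deviation of −0.16, and Dnmt3b stood at −0.17 relative to them. The part of transcript length was not tested. Per kilobase, Dnmt3b exceeded Dnmt3a in every pool, by 2.00 to 2.59 times in untreated and 2.10 to 2.41 times in RUX pools. Dnmt1 made up 70.3 ± 4.65% of the summed level of the 3 enzymes in untreated and 67.6 ± 4.79% in RUX pools (SD, n = 3, as for the shares that follow), Dnmt3b 20.9 ± 4.09% and 22.5 ± 3.38%, and Dnmt3a 8.75 ± 0.576% and 9.95 ± 1.53%. The proportions thus overlapped between the groups for all 3.

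The TET genes were the lowest of the set, and Tet3 was the most abundant of them in each pool. Tet3 (chromosome 6, 83362374 to 83441678, minus strand) measured 27.9, 47.7 and 32.0 CPM in untreated and 49.8, 38.3 and 33.9 CPM in RUX pools. It varied most of the 10 genes, 1.78-fold from the lowest to the highest pool, with untreated pool 2 and RUX pool 4 high and untreated pool 1 low. Its SD over pools on the log2(CPM + 1) scale, 0.32, exceeded that of 87.8% of tested genes. Tet1 (chromosome 10, 62804570 to 62880014, minus strand) measured 14, 20.2 and 13.3 CPM in untreated and 20.8, 16.5 and 17.3 CPM in RUX pools. Untreated pool 2 and RUX pool 4 were again the high ones. Tet2 (chromosome 3, 133463677 to 133544390, minus strand), the TET gene most often mutated in clonal hematopoiesis, was flat by comparison. It measured 13.9, 14.3 and 11.8 CPM in untreated and 15, 12.1 and 12.3 CPM in RUX pools, and its SD over pools exceeded that of 19.8% of tested genes.

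The log2 fold changes of Tet1, Tet2 and Tet3 were 0.20 ± 0.20, −0.02 ± 0.18 and 0.18 ± 0.21 (SE), each with an edgeR adjusted p of 1. The values for Tet1 and Tet3 moved with single pools. Without untreated pool 2 they were 0.42 and 0.45 (edgeR unadjusted p of 0.0495 and 0.0412, adjusted p of 0.972 for both). Without RUX pool 4 they were 0.10 and 0.01, without untreated pool 3 they were 0.09 and 0.10, without untreated pool 1 they were 0.12 and 0.03, and with untreated pool 3 and also RUX pool 4 left out they were −0.01 and −0.07; for Tet3 it was 0.29 without RUX pool 6. All 3 genes exceed 8 kb of summed exon length. The 456 tested genes of that length at 5 CPM or more had a median log2 fold change of 0.09. Their median deviation was 0.18 in untreated pool 2, −0.25 in untreated pool 3 and −0.07 to 0.06 in the other 4. Relative to that length class, Tet3 still stood at 0.35 in RUX pool 4 and −0.34 in untreated pool 1, and the differences between groups were 0.12 for Tet1, −0.12 for Tet2 and 0.10 for Tet3. Tet3 held 50.5 to 59.4% of the summed TET level per kilobase in untreated and 54.8 to 59.5% in RUX pools, Tet2 21.2 to 29.9% and 21.3 to 23.6%, and Tet1 18.3 to 19.6% and 19.2 to 21.6%. The share of Tet1 was thus nearly constant while the sum varied from 5.07 to 7.67 CPM per kb.

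**Figure D3:**
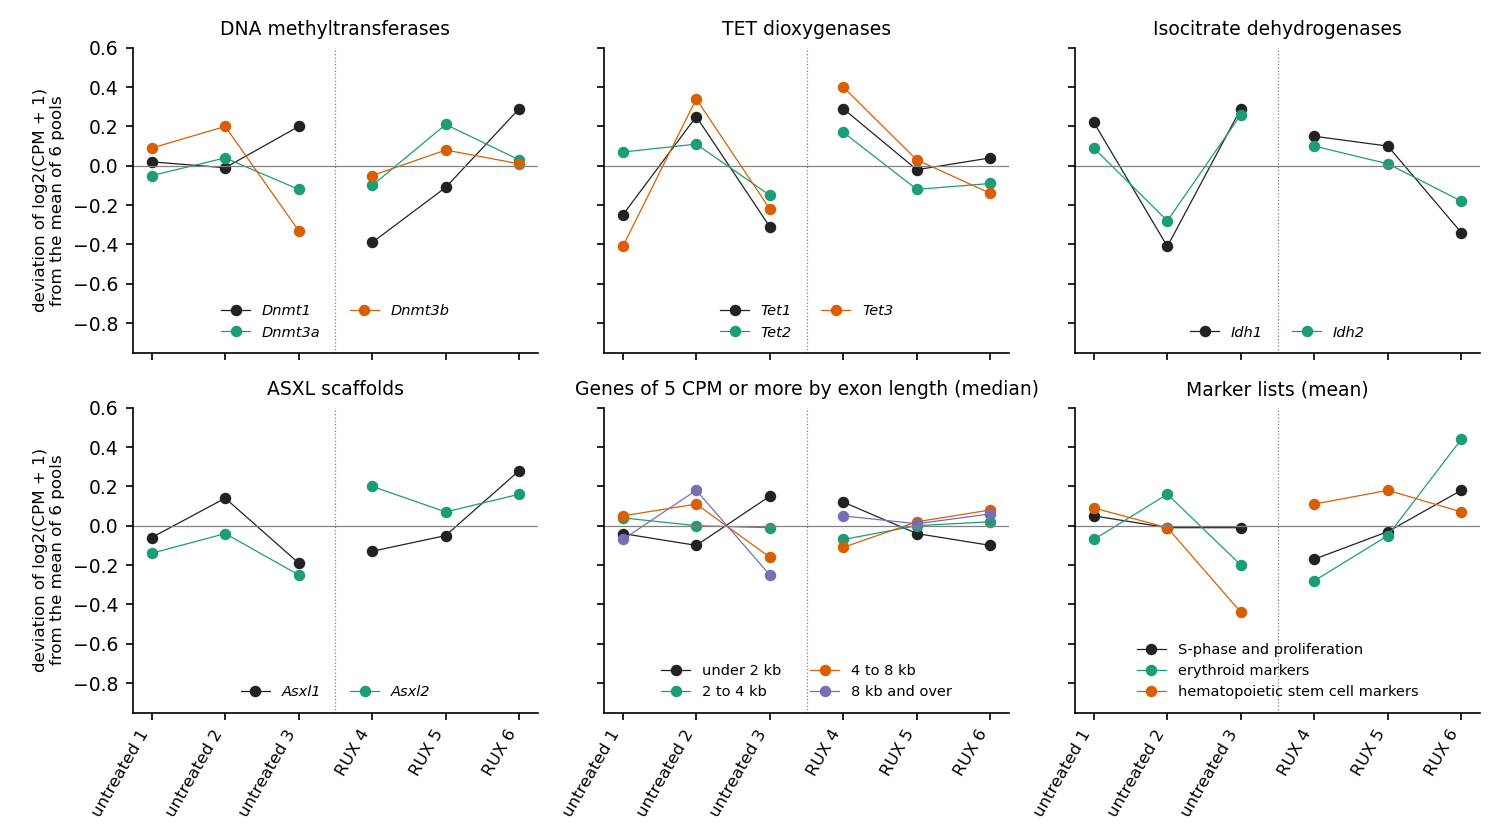
Deviation of log2(CPM + 1) in each pool from the mean over 6 pools, for the 4 gene families, for tested genes of at least 5 CPM by exon length (median per class) and for 3 marker lists (mean per list); lines only join pools of a group, which have no order. Tet1 and Tet3 are high in untreated pool 2 and RUX pool 4, Idh1 and Idh2 are low in untreated pool 2 and RUX pool 6, and Dnmt1 runs from −0.39 to 0.29 among the RUX pools.

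The isocitrate dehydrogenase genes shared a profile over the pools that did not follow treatment. Idh2 (chromosome 7, 80094847 to 80115350, minus strand) measured 343, 265 and 387 CPM in untreated and 345, 325 and 284 CPM in RUX pools. Idh1 (chromosome 1, 65158616 to 65186479, minus strand) measured 93.9, 60.2 and 98.8 CPM in untreated and 89.3, 86.4 and 63.6 CPM in RUX pools. Both were highest in untreated pool 3 and lowest in untreated pool 2 and RUX pool 6, and the RUX pools lay inside the untreated range. The log2 fold changes were −0.06 ± 0.16 for Idh2 and −0.08 ± 0.20 for Idh1 (SE; edgeR adjusted p = 1 for both). Of the 45 pairs among the 10 genes these were the most alike, with a root mean square difference of 0.11 between their centered log2(CPM + 1) profiles over the 6 pools, followed by Tet1 with Tet3 at 0.12 and Dnmt3a with Dnmt3b at 0.13; the least alike were Tet3 with Idh1 and Tet3 with Dnmt1, at 0.47 each. Monocyte and dendritic markers, all 8 detected in every pool, had mean deviations of 0.16, −0.08 and 0.34 in untreated and 0.10, 0.00 and −0.52 in RUX pools, and summed to 957 to 1340 and 668 to 975 CPM. Their part in the Idh1 and Idh2 values was not tested. Tested genes under 2 kb exon length and of at least 5 CPM, the class of Idh2, had median deviations of −0.04, −0.10 and 0.15 in untreated and 0.12, −0.04 and −0.10 in RUX pools. Relative to them, Idh2 stood at 0.13, −0.18 and 0.12 and at −0.02, 0.05 and −0.08. Idh1, relative to genes of 2 to 4 kb, stood at 0.18, −0.42 and 0.30 and at 0.22, 0.10 and −0.36. The part of transcript length was not tested here either. Idh2 exceeded Idh1 per kilobase by 5.23 to 6.31 times in untreated and 5.38 to 6.38 times in RUX pools.

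Asxl2 was the 1 gene of the 10 whose RUX pools all lay above the untreated pools. Asxl2 (chromosome 12, 3426857 to 3506849, plus strand) measured 39.9, 43.0 and 36.9 CPM in untreated and 50.6, 46.4 and 49.2 CPM in RUX pools. Its highest untreated pool was pool 2 and its lowest RUX pool was pool 5. The log2 fold change of 0.29 ± 0.14 (SE), a fold of 1.22 with a 95% interval of 0.989 to 1.51, did not pass the test (edgeR unadjusted p = 0.0621, adjusted p = 1). Of the 10 genes, 1 thus separated with RUX higher and 0 with RUX lower, where 2.99% and 3.25% of all tested genes did, 6.24% in either direction. With 1 pool left out in turn the value was 0.23 to 0.35, and it was 0.21 when untreated pool 3 was left out along with RUX pool 4. Without untreated pool 2 it was 0.35 (edgeR unadjusted p of 0.0466, adjusted p of 0.972). In that fit, 666 of 13747 tested genes had an edgeR unadjusted p under 0.05. Relative to the length class of Asxl2, 8 kb and over, the difference was 0.19, and the groups still did not overlap. The stem cell markers summed to 158 to 250 CPM in untreated and 256 to 275 CPM in RUX pools (10 of 10 detected in every pool), without overlap. Their mean deviations did overlap, at 0.09, −0.01 and −0.44 in untreated and 0.11, 0.18 and 0.07 in RUX pools, and of the 9 tested markers 2 separated with RUX higher, and log2 fold changes were above 0 for 6 and below 0 for 3. Their part in the Asxl2 values was not tested.

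Asxl1, its paralog, did not separate. Asxl1 (chromosome 2, 153346139 to 153404007, plus strand) measured 65.8, 75.8 and 59.8 CPM in untreated and 62.6, 66.2 and 83.7 CPM in RUX pools. Only RUX pool 6 stood above the untreated range, and the log2 fold change was 0.08 ± 0.16 (SE; edgeR adjusted p = 1), or −0.06 without RUX pool 6. Asxl1 exceeded Asxl2 per kilobase in every pool and held 69.4 ± 0.970% of their summed level in untreated and 66.1 ± 3.55% in RUX pools. The third paralog, Asxl3, held at most 4 counts in any pool.

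Ratios within families, which do not depend on how libraries are scaled, overlapped between the groups in all 5 cases compared. The ratio of Asxl2 to Asxl1 was 0.448, 0.419 and 0.457 in untreated and 0.597, 0.518 and 0.435 in RUX pools, a difference of 0.22 on the log2 scale (two-sided exact permutation p = 0.3, Benjamini-Hochberg adjusted p = 0.75 over the 5 ratios). RUX pools 4 and 5 lay above the untreated pools and RUX pool 6 inside their range. The other differences were −0.06 for Dnmt3b to Dnmt3a, 0.25 for Tet1 to Tet2, 0.23 for Tet3 to Tet2 and 0.01 for Idh2 to Idh1, with exact permutation p of 0.6, 0.4, 0.5 and 0.9. Single pools moved these values: without untreated pool 1 the Tet3 to Tet2 difference was 0.03 and the Tet1 to Tet2 difference 0.14, and without untreated pool 2 they were 0.40 and 0.38. The Asxl2 to Asxl1 difference was 0.11 without RUX pool 4 and 0.34 without RUX pool 6, and the Dnmt3b to Dnmt3a difference was −0.18 without untreated pool 3, −0.11 without RUX pool 4, −0.01 without untreated pool 1 or RUX pool 5, and 0.00 without untreated pool 2. With 3 against 3 pools such a p cannot fall below 0.1.

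Position links 4 of the 10 genes. Asxl1 and Dnmt3b are neighbors on chromosome 2, 245441 bases apart, and Asxl2 and Dnmt3a are neighbors on chromosome 12, 300130 bases apart, each pair with the ASXL gene first and both genes on the plus strand. Between Asxl1 and Dnmt3b the deposited annotation holds Nol4l and Commd7, and between Asxl2 and Dnmt3a it holds Dtnb, the dystrobrevin beta gene. None of these 3 passed the test, and all 3 overlapped between the groups, with log2 fold changes of 0.06 ± 0.30 (Nol4l), −0.05 ± 0.14 (Commd7) and 0.13 ± 0.19 (Dtnb; SE, edgeR adjusted p = 1 for each). The antisense gene Dnmt3aos lies within Dnmt3a and reached at most 0.162 CPM. The counting is not stated to use strand, so read pairs were assigned by position alone. By default, any read pair over exons of both genes was left out.

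The genes whose pool profiles were most like those of the most variable members, by root mean square difference of centered log2(CPM + 1) over 6 pools among 9521 genes of at least 5 CPM, were as follows. For Tet3 they were Diap1, Insr and Nipbl at 0.040, 0.046 and 0.050; Nipbl, the cohesin loader, measured 63.6, 103 and 70.1 CPM in untreated and 114, 79.4 and 76.9 CPM in RUX pools. For Tet1 they were Chd8, Tmem41a and Setd5 at 0.046, 0.048 and 0.049, of which Chd8 encodes a chromatin remodeler. For Idh1 they were Emb, Rab32 and Rdh12 at 0.057, 0.059 and 0.070. These likenesses are a description of the 6 pools, with no test.

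Other genes of DNA methylation, its removal and its cofactors also did not change by the test. Of 69 such genes in 8 lists, 63 were tested and 0 passed in either direction (0% of all tested genes; 0 of the 63 also at an unadjusted p under 0.05, beside 1.89% of all). Their log2 fold changes were 30 positive and 33 negative, from −0.29 to 0.32 with a median of −0.01. Of the 8 partners of maintenance methylation, 4 were positive and 4 negative (median 0.00). Uhrf1, which brings Dnmt1 to newly replicated DNA, measured 277, 334 and 307 CPM in untreated and 300, 303 and 348 CPM in RUX pools, so the groups overlapped, and RUX pool 4, the lowest for Dnmt1, lay above untreated pool 1. Uhrf2 and Pclaf (listed under the older symbol 2810417H13Rik) had log2 fold changes of −0.11 and −0.11. Of 6 partners of de novo methylation, 1 was positive and 5 negative (median −0.08), with Nsd1, a histone H3 lysine methyltransferase, at 0.11 and Ezh2, the Polycomb methyltransferase, at −0.14. The 7 readers of methylated CpG had a median of 0.01, with Zbtb4 at 0.27.

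On the removal side, the 9 tested genes of base excision and active demethylation had a median of 0.03, with the DNA ligase gene Lig3 at −0.13 and the stress gene Gadd45b at 0.19. Tdg, the glycosylase that excises oxidized methylcytosine, held 6, 7 and 8 counts in untreated and 5, 12 and 14 in RUX pools and did not pass the filter. RefSeq lists Tdg-ps and Tdg-ps2 beside it, and read pairs that map to several places were left out by the counting defaults, so its level is uncertain; the same holds for Amd1, which has the copy Amd2. Ogt, the O-GlcNAc transferase that binds TET proteins, measured 163, 164 and 107 CPM in untreated and 166, 176 and 168 CPM in RUX pools. It was the only 1 of the 63 without overlap on the higher side (2.99% of all tested genes), and its log2 difference was 0.23 ± 0.17 (SE; adjusted p of 1 by edgeR). Only untreated pool 3, the pool lowest in stem cell markers, was clearly lower; the part of those cells was not tested. Cxxc5, a CXXC zinc finger gene, stood at 0.19.

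Among the cofactor genes, the 12 enzymes of 2-oxoglutarate and 2-hydroxyglutarate metabolism had 5 positive and 7 negative values (median −0.06). Fh1, fumarate hydratase, and Glud1, glutamate dehydrogenase, both stood at −0.17. The 9 tested genes of the S-adenosylmethionine cycle, which supplies the methyl donor, had 2 positive and 7 negative values (median −0.07). Mat2a, the enzyme that makes S-adenosylmethionine, measured 658, 592 and 435 CPM in untreated and 408, 465 and 502 CPM in RUX pools, overlapping through untreated pool 3 alone. Its log2 difference was −0.29 ± 0.17 (SE), with an unadjusted p of 0.109 and an adjusted p of 1 by edgeR. The 8 tested genes of the ASXL and BAP1 complex had a median of 0.03, with the deubiquitinase gene Bap1 at −0.12 and its partner Hcfc1 at 0.20.

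**Figure D4:**
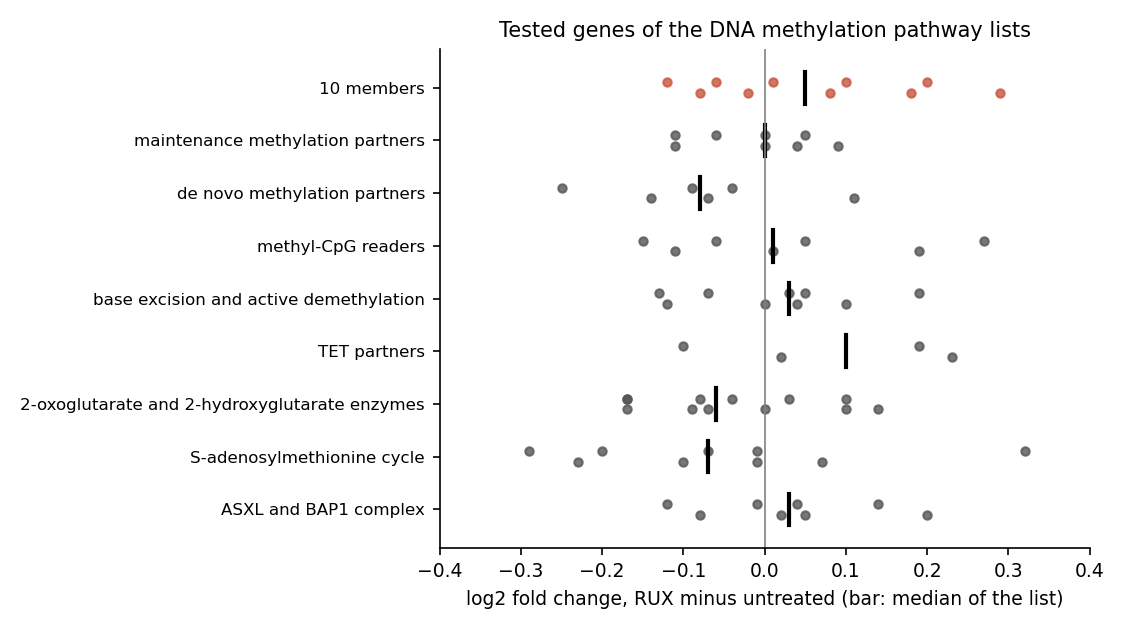
Log2 fold change (RUX minus untreated) of the 10 genes (red) and of the tested genes of 8 pathway lists (grey), 1 point per gene, with a bar at the median of each list. All medians lie between −0.08 and 0.10, and no gene lies beyond −0.29 or 0.32.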

How the data were processed

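The labels' protocols give SMART-Seq mRNA LP libraries for all 6 pools. The submitters' processing notes name STAR, with no version, and mm10. The authors deposited raw counts of read pairs per gene from featureCounts 2.0.3 over exons, per the file headers; the command sets no strand, multi-mapping or overlap option, so by default pairs mapping to several places or genes were left out. Summed exon length per gene is in the same deposited table.

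Columns were matched to pools by library name and grouped by label. edgeR 4.0.16 (R 4.3.3) kept 13411 genes by filterByExpr defaults, scaled by TMM (0.9381 to 1.035) and tested treatment alone by the two-sided quasi-likelihood test, with Benjamini-Hochberg adjustment over all tested genes at 0.05. SEs were derived from each F value. Log2 deviations use log2(CPM + 1). Totals were 27354768 to 48747137, with no molecular identifiers stated. The fit was tested on simulated data. The p-values set the group difference against the spread between pools, which the edgeR fit estimates in part from other genes. Each pool holds different mice, and no numbers are shared.

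The members and lists were chosen with earlier results of these data known. Named genes are all 10 members, the 2 genes of each list with the smallest unadjusted p, Uhrf1, Tdg, Ogt and Bap1 always, and the 3 nearest profiles to the 3 most variable members; some genes this rule names are not reported here. Genes between neighboring members were named by position, and Dnmt3aos, Asxl3 and Amd1 after their values were seen. No rule fixed in advance which marker lists are given beside which gene, and no gene is set beside every list. Alternatives were DESeq2 size factors, upper-quartile scaling, robust fitting, a filter of 1 CPM in 3 pools or none, limma-voom (limma 3.58.1), DESeq2 1.42.0, each pool left out, untreated pool 3 and RUX pool 4 left out and, chosen after seeing the data, values relative to the length class.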

Additional observations from a re-analysis of the deposited data

How the results depend on the processing

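No member was called in any of the 14 alternative fits, and Dnmt3a and Asxl2 kept their direction in these fits, at 0.01 to 0.18 and 0.23 to 0.35 with 1 pool left out. Relative to the length class, chosen after seeing the data, Dnmt3a was at 0.00. The count of genes called over the whole table was 0 except without the low-count filter, where it was 14, none of them a member; the cause was not tested. With 1 pool left out, values of both signs occurred for Dnmt1 (−0.32 to 0.04), Dnmt3b (−0.13 to 0.13), Tet2 (−0.12 to 0.04), Idh1 (−0.26 to 0.06), Idh2 (−0.19 to 0.06) and Asxl1 (−0.06 to 0.18). Without untreated pool 3 and RUX pool 4 the sign turned for Dnmt1 (0.10), Dnmt3b (−0.09), Tet1 (−0.01), Tet3 (−0.07) and Idh2 (0.00). With 1 pool left out, the difference in log2 ratio was −0.18 to 0.00 for Dnmt3b to Dnmt3a, 0.14 to 0.38 for Tet1 to Tet2, 0.03 to 0.40 for Tet3 to Tet2, −0.06 to 0.08 for Idh2 to Idh1 and 0.11 to 0.34 for Asxl2 to Asxl1. With untreated pool 3 and RUX pool 4 left out, these were −0.23, 0.22, 0.19, 0.03 and 0.13. The order of the 10 levels per kilobase was the same with DESeq2 size factors, with medians over pools and with any 1 pool left out. Other scalings, filters and tests turned no member's sign. The labels give no pairing or batch of the pools, so no paired analysis was run. Counts per member and pool were 390 to 15830 read pairs.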
